A study of Homo sapiens with 6 samples.

Results

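The genes described here encode subunits of the replicative helicase or control its loading and activation: MCM2, MCM3, MCM4, MCM5, MCM6, MCM7, MCM10, CDC6, CDT1 and GMNN. The members are every probe set that the platform annotation assigns to one of these 10 genes, and there were 16 among the 22277 probe sets deposited. The cells were NCI-H929, an established human multiple myeloma line, electroporated with small interfering RNA (siRNA) and harvested 24 h later. The scramble group received a non-targeting siRNA, the siRRM1 group an siRNA against RRM1 and the siRRM2 group an siRNA against RRM2, with 2 arrays in each of the 3 groups. RRM1 and RRM2 encode the large and small subunits of ribonucleotide reductase, which supplies deoxyribonucleotides for DNA synthesis. All 3 groups share the line and the electroporation, and no array of cells without electroporation was analysed here. The labels do not state that replicates were separate cultures, so the p-values measure only the spread between these samples, which may be technical.

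Origins of replication are licensed in G1 phase. The origin recognition complex binds DNA, CDC6 and CDT1 join it, and together they load a ring of the MCM2 to MCM7 proteins, the core of the helicase that later unwinds DNA. Geminin, the product of GMNN, binds CDT1 after S phase begins and prevents a second loading, while MCM10 acts at the step at which the loaded helicase becomes active. Transcription of most of these genes is driven by E2F factors at the G1/S transition, and rapidly dividing myeloma cells express them strongly.

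Each siRNA lowered its target. The RRM1 signal of siRRM1 had a log2 difference from scramble of -2.63 (limma adjusted p = 0.00154), and the RRM2 signal of siRRM2 one of -1.79 (limma adjusted p = 0.0214). These are changes of -83.8% and -71.0%, so signal of each target remained. When the first or the second scramble array was left out, RRM2 had adjusted p of 0.0739 and 0.0552 and no longer passed. All 10 plasma cell and myeloma markers checked, SDC1 and TNFRSF17 among them, lay above the log2 signal of 5.44 used as the limit for testing. The array medians lay between 6.11 and 6.16. On siRRM1 replicate 2 the log2 differences between the 3′ and 5′ control probe sets of ACTB (0.33) and GAPDH (-0.01) were close to those of scramble replicate 1 (0.34 and -0.02), and the ACTB differences on the other 4 arrays were 0.03 to 0.15. The number of arrays limits the precision of every value.

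All 16 probe sets had a mean above the limit for testing, so none of the 10 genes was left out. The log2 values below are signals of single probe sets, and they are compared between arrays and never between genes. Each gene is represented by its probe set with the highest mean signal. Relative to scramble, knockdown of RRM1 was accompanied by higher signals of MCM5 and MCM3, the helicase subunits that passed the test. The other 8 genes were measured higher by smaller amounts that did not pass. Knockdown of RRM2 brought no licensing gene past the threshold. The arrays measure RNA from whole cultures, so more cells in the phase that expresses these genes and more RNA per cell cannot be told apart.

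**Figure D1:**
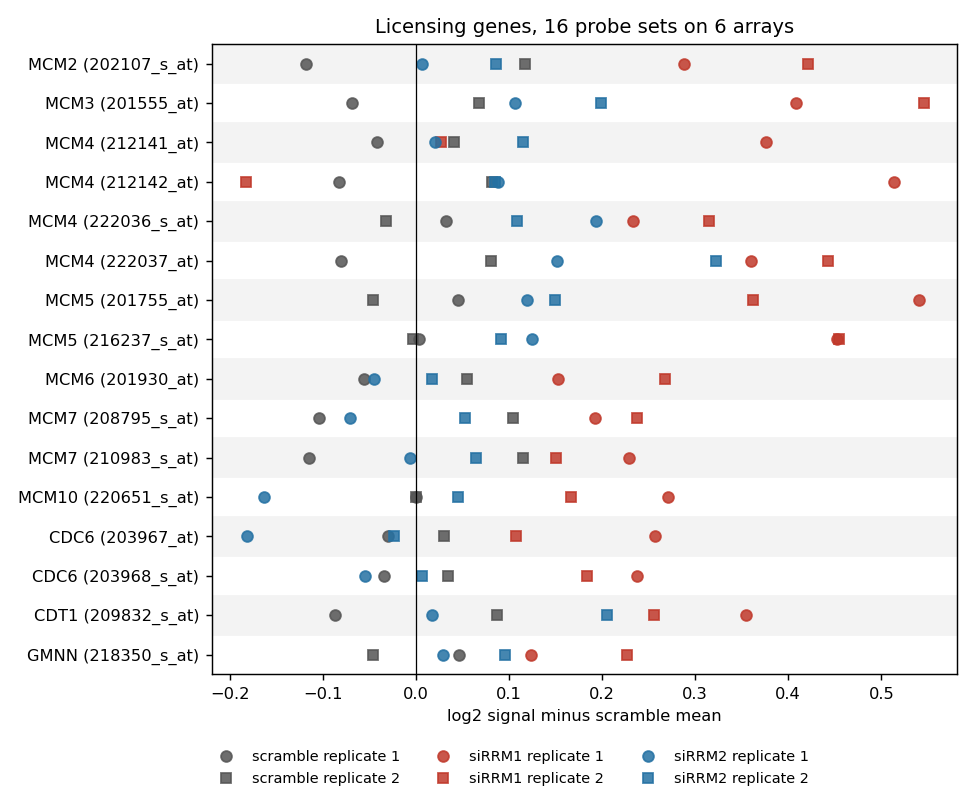
Log2 signal of each of the 16 probe sets on each of the 6 arrays, as the difference from the mean of the 2 scramble arrays; colour gives the group and the marker shape the replicate number. The siRRM1 arrays lie to the right of both scramble arrays for 14 of the 16 probe sets, the exceptions being 212141_at and 212142_at of MCM4.

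The comparison of siRRM1 with scramble addresses expression after knockdown of the large reductase subunit. Effects of an siRNA beyond its target cannot be told apart here from those of the target's fall. MCM5 encodes a subunit at the gate of the ring through which DNA enters. Its probe set 216237_s_at read 10.63 and 10.62 on the scramble arrays, 11.07 and 11.08 on the siRRM1 arrays, and 10.75 and 10.71 on the siRRM2 arrays. The siRRM1 pair stood above all other arrays and the replicates of each group lay close together. The rise in siRRM1 was 1.37-fold (log2 0.45, SE 0.08, limma adjusted p = 0.0133). The second MCM5 probe set, 201755_at, read 8.90 and 8.81 in scramble, 9.40 and 9.22 in siRRM1, and 8.98 and 9.01 in siRRM2. It gave the same log2 difference of 0.45, so both reporters of MCM5, read on the same arrays, placed the gene higher in siRRM1. In the fit over all probe sets 201755_at passed (limma adjusted p = 0.0410), but not after each array was centred on its median (0.0551). With only the 4 arrays of the compared groups neither probe set passed (limma adjusted p = 0.0817 for 201755_at and 0.0594 for 216237_s_at).

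MCM3, a further subunit of the ring, read 10.83 and 10.97 in scramble, 11.31 and 11.44 in siRRM1, and 11.00 and 11.10 in siRRM2. The groups did not overlap, with the siRRM1 arrays highest and the scramble arrays lowest. The rise in siRRM1 was 1.39-fold (log2 0.48, SE 0.10, limma adjusted p = 0.0197). These calls rest on single arrays. MCM5 lost its call without scramble replicate 1 (adjusted p = 0.0618), scramble replicate 2 (0.0523) or siRRM1 replicate 2 (0.0656), and MCM3 without scramble replicate 1 (0.104) or siRRM1 replicate 2 (0.108), while the log2 differences stayed between 0.45 and 0.46 for MCM5 and between 0.41 and 0.55 for MCM3.

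MCM2, whose protein sits beside MCM5 at the gate, read 10.56 and 10.80 in scramble, 10.97 and 11.10 in siRRM1, and 10.69 and 10.77 in siRRM2. Its siRRM1 arrays lay above all others, but the scramble arrays differed by more than those of MCM5 or MCM3. The log2 difference in siRRM1 was 0.35 (SE 0.11, 95% interval 0.10 to 0.61), with an adjusted p of 0.0666 by limma. With the replicate number as a block, the adjusted p was 0.0227, and MCM2 then passed the threshold beside MCM3 and MCM5.

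The remaining subunits showed smaller differences in siRRM1. MCM6 read 11.46 and 11.57 in scramble, 11.67 and 11.78 in siRRM1, and 11.47 and 11.53 in siRRM2, a log2 difference of 0.21 in siRRM1 (95% interval -0.01 to 0.43). MCM7, by 210983_s_at, read 10.35 and 10.58 in scramble, 10.69 and 10.61 in siRRM1, and 10.46 and 10.53 in siRRM2, a log2 difference of 0.19 (95% interval -0.05 to 0.43). For both, the siRRM1 arrays lay above the scramble arrays, and for MCM7 the lower siRRM1 array was close to the higher scramble array. The other MCM7 probe set, 208795_s_at, gave 0.21. None of these values passed, with adjusted p of 0.165 for MCM6 and 0.254 for MCM7 by limma.

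Of the 4 genes with several probe sets, MCM4 had the widest gap between its probe sets on an array. In siRRM1 replicate 1 its 4 probe sets lay 0.23 to 0.51 above their scramble means. In siRRM1 replicate 2, 222036_s_at and 222037_at lay 0.31 and 0.44 above the scramble mean, whereas 212141_at lay 0.03 above it and 212142_at lay at -0.18. The readings of 212142_at were 8.96 and 9.13 in scramble, 9.56 and 8.86 in siRRM1, and 9.14 and 9.13 in siRRM2, so a single probe set held both the highest and the lowest value of the series within the siRRM1 pair. The readings of 222037_at were 9.36 and 9.53 in scramble, 9.81 and 9.89 in siRRM1, and 9.60 and 9.77 in siRRM2, with both siRRM1 arrays highest.

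The difference between 222037_at and 212142_at, set to a mean of 0 in scramble, was 0.63 on siRRM1 replicate 2, against -0.15 to 0.24 on the other 5 arrays. The corresponding difference between the paired probe sets of MCM5, MCM7 and CDC6 stayed between -0.13 and 0.09 on all 6 arrays. On siRRM1 replicate 2 the ACTB difference between 3′ and 5′ probe sets was 0.33, as on scramble replicate 1 (0.34), where the MCM4 gap was 0.0015. The median 3′ to 5′ difference over 7 spiked-in control sets was 1.47 on siRRM1 replicate 2, against 1.23 to 1.38 on the other 5 arrays. The part of RNA or array quality in the disagreement was not tested. The probe set with the highest mean, 212141_at, gave a log2 difference of 0.20 in siRRM1 (95% interval -0.09 to 0.49, limma adjusted p = 0.313), and 222037_at gave 0.40 in the fit over all probe sets (limma adjusted p = 0.0702). With the replicate block 222037_at passed (adjusted p = 0.0310), as it did with an intensity trend in the variance model (0.0416).

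**Figure D2:**
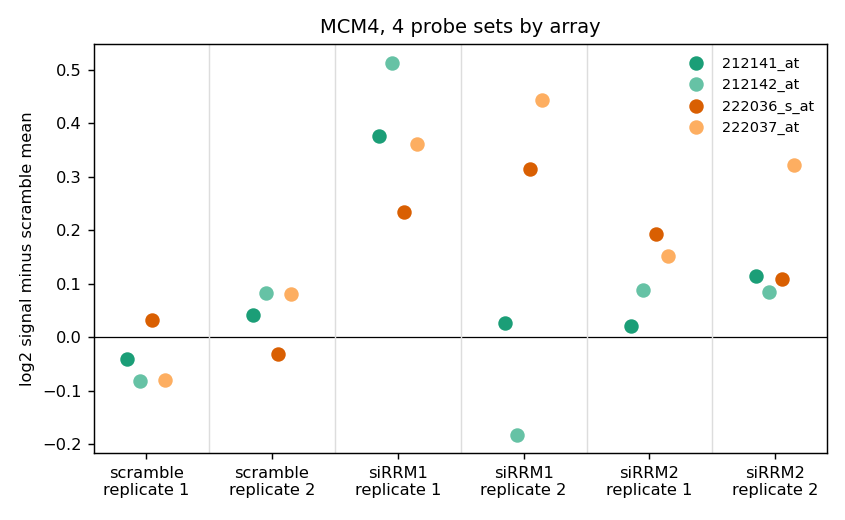
Log2 signal of the 4 MCM4 probe sets as the difference from their own scramble means (vertical axis), by array (horizontal axis). On siRRM1 replicate 2 the probe sets separate, with 222037_at at 0.44 and 212142_at at -0.18, while on siRRM1 replicate 1 all 4 lie above 0.

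Of the genes that load and activate the ring, none passed the test in siRRM1. CDC6, the loading ATPase, read 9.53 and 9.60 in scramble, 9.80 and 9.75 in siRRM1, and 9.51 and 9.57 in siRRM2 by 203968_s_at. The siRRM1 arrays were above the rest and the siRRM2 arrays overlapped the scramble arrays. The log2 difference in siRRM1 was 0.21 (95% interval 0.01 to 0.41, limma adjusted p = 0.140), and the other probe set, 203967_at, gave 0.18.

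CDT1, which escorts the ring to the origin, read 7.94 and 8.11 in scramble, 8.38 and 8.28 in siRRM1, and 8.04 and 8.23 in siRRM2. The log2 difference in siRRM1 was 0.31 (95% interval 0.05 to 0.56, limma adjusted p = 0.0970). MCM10 read 9.77 on both scramble arrays, 10.04 and 9.93 in siRRM1, and 9.61 and 9.81 in siRRM2. It was higher in siRRM1 by a log2 difference of 0.22 (95% interval -0.02 to 0.46, limma adjusted p = 0.183), and its siRRM2 arrays fell on both sides of scramble.

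GMNN, the inhibitor of loading, read 10.87 and 10.78 in scramble, 10.95 and 11.05 in siRRM1, and 10.86 and 10.92 in siRRM2. Its log2 difference of 0.18 in siRRM1 (95% interval -0.04 to 0.39, limma adjusted p = 0.227) was the smallest of the 10. The CDT1 signal relative to the GMNN signal of the same array, set to a mean of 0 in scramble, was -0.13 and 0.13 in scramble, 0.23 and 0.03 in siRRM1, and -0.01 and 0.11 in siRRM2. All but 1 of the knockdown values lay within the scramble range. A difference in the balance of the activator and its inhibitor was not detectable with 2 arrays a group.

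Counted as a group, 2 of the 10 licensing genes rose and 0 fell in siRRM1, and all 10 had a log2 difference above 0. Over the 7936 genes tested, 8.22% rose, 7.33% fell and 48.3% had a difference above 0. The median log2 difference was 0.21 over the 10 genes and -0.0092 over all genes tested. Of the 1234 genes called, 52.8% were higher in siRRM1, and 41.2% after each array was centred on its median. The siRRM1 arrays lay above both scramble arrays for 9 of the 10 genes, MCM4 being the other, while 28.4% of all genes tested did so. In the fit over all 22277 probe sets, 3 of the 16 member probe sets rose, those of MCM3 and both of MCM5, against 3.69% of all probe sets. The siRRM1 arrays were the higher group without overlap for 14 of the 16, against 23.4% of all probe sets. The count of 2 genes became 0 without scramble replicate 1 or siRRM1 replicate 2 and 1 without scramble replicate 2. With only the 4 arrays of the compared groups, 0 of the 16 probe sets rose, while at an unadjusted limma p under 0.05 the fit over 6 arrays held 7, against 21.4% of all probe sets.

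**Figure D3:**
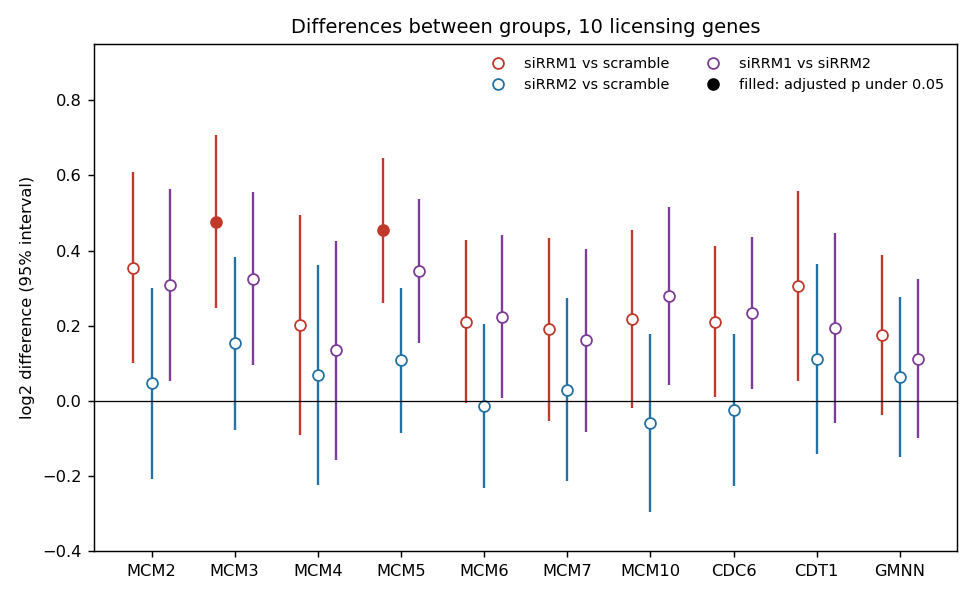
Log2 difference (vertical axis) with its 95% interval from the moderated fit for the 10 licensing genes in the 3 comparisons; filled points passed an adjusted p of 0.05. The filled points are MCM3 and MCM5 in siRRM1 against scramble.

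The promoters of the licensing genes are known for E2F sites, and RefSeq promoter windows of GRCh38.p14 were available for 8 of the 10 genes, MCM4 and MCM5 not among them. The 250 bases before each annotated start were searched on both strands for the letters TTTCCCGC, TTTCGCGC, TTTGCCGC or TTTGGCGC, forms of the E2F consensus whose matches on opposite strands can overlap. A match was present in at least 1 window of 5 of the 8 genes, namely MCM3, MCM6, MCM7, CDT1 and GMNN, and in 5 of their 11 windows, against 2.79% of the 35116 windows in the table. Windows of MCM2, MCM10 and CDC6 held no such letters. The following windows are shown because they belong to the called gene with a match (MCM3), the gene with the most matches (MCM6) and a loading factor with a match close to its start (CDT1), and because they overlap no other annotated gene; they run 5′ to 3′ on the strand of the gene and capitals mark the matched letters. MCM3 lies at chr6:52284743-52284992 on the minus strand, MCM6 at chr2:135876444-135876693 on the minus strand and CDT1 at chr16:88803539-88803788 on the plus strand.
MCM3: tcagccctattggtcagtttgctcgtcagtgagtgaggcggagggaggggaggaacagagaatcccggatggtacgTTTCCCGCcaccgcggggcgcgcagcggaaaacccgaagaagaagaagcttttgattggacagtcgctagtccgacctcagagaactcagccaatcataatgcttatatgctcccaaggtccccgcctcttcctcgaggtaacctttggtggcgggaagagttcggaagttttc
MCM6: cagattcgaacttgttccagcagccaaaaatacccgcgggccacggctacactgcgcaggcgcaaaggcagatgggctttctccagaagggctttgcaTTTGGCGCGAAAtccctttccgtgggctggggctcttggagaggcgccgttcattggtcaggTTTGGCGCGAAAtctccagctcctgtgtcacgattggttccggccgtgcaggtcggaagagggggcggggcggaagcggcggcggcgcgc
CDT1: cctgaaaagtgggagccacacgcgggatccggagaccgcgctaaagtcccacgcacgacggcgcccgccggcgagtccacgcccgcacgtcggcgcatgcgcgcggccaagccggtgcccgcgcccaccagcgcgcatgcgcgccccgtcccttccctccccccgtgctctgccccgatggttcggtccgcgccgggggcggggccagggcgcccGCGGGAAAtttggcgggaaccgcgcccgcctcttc
MCM6 held 4 matches, as 2 overlapping pairs, and MCM3 held 1, while the log2 difference in siRRM1 was 0.21 for MCM6 and 0.48 for MCM3. A match is a description of the letters only.

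The comparison of siRRM2 with scramble asks the same of the small subunit, and it shares the scramble arrays with the one above. No licensing gene passed the test. Of the 10, 0 rose and 0 fell, against 2.00% of the 7936 genes that rose and 0.517% that fell, and at an unadjusted limma p under 0.05 there were also 0, where 20.4% of all genes tested reached it. The log2 differences ran from -0.06 in MCM10 to 0.15 in MCM3, with a median of 0.05 against -0.0033 over all genes tested. The arrays did not overlap for MCM3 and MCM5, where siRRM2 was the higher group, and such genes made up 27.1% of all tested. Of the 16 probe sets, 0 rose against 0.575% of all probe sets. Their log2 differences ran from -0.10 (203967_at of CDC6) to 0.24 (222037_at of MCM4). For 6 of the 16 siRRM2 was the higher group without overlap, as for 4978 of all 22277 probe sets.

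The siRRM2 intervals bound what could have been missed. For MCM5 the 95% interval of the log2 difference ran from -0.09 to 0.30, and for MCM3 from -0.08 to 0.38. For MCM2 the difference was 0.05 (-0.21 to 0.30), for CDT1 0.11 (-0.14 to 0.36) and for GMNN 0.06 (-0.15 to 0.28). For MCM6 it was -0.01 (-0.23 to 0.20), for MCM7 0.03 (-0.21 to 0.27) and for CDC6 -0.02 (-0.23 to 0.18). By the probe set that represents each gene, no upper bound among the 10 genes exceeded the 0.38 of MCM3. A rise as large as that measured for MCM3 in siRRM1, the largest of the 10, lay outside each of these intervals. It lay inside those of 2 other MCM4 probe sets in the fit over all probe sets, 212142_at (-0.37 to 0.54) and 222037_at (-0.01 to 0.49). The smaller differences that MCM4 (0.20), MCM7 (0.19), CDT1 (0.31) and GMNN (0.18) had in siRRM1 lay inside their own siRRM2 intervals. Those of the other genes lay outside theirs. Differences inside these intervals could not be told from 0.

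The direct comparison of the knockdowns tests whether the responses differed, and it shares its arrays with both comparisons above. All 10 genes were measured higher in siRRM1 than in siRRM2, by a median log2 difference of 0.23 against -0.0078 over all genes tested. None passed the threshold, where 0.164% of the genes tested were called in either direction. At an unadjusted limma p under 0.05 there were 6, against 10.0% of all genes tested. MCM5 had the largest difference (log2 0.35, 95% interval 0.15 to 0.54, limma adjusted p = 0.194), followed by MCM3 (0.32, adjusted p = 0.338) and MCM2 (0.31, adjusted p = 0.415). The siRRM1 arrays lay above both siRRM2 arrays for 9 genes, all but MCM4, against 18.9% of all genes tested. In the fit over probe sets 0 of 16 passed, where 0.0314% of all probe sets were called. The rises of MCM3 and MCM5 in siRRM1 were not shown to differ from the values in siRRM2. With the replicate number as a block, all genes called between the knockdowns went from 13 to 153, and 0 of them were licensing genes, the smallest adjusted p being 0.0999 for MCM5.

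The partners of the licensing genes were read from 6 lists. The origin recognition complex, on which the ring is loaded, was mixed in siRRM1. Of its 6 subunits tested, ORC6 rose and 0 fell, against 8.22% and 7.33% of all genes tested. ORC6 read 9.26 and 9.02 in scramble, 9.54 and 9.64 in siRRM1, and 9.40 and 9.31 in siRRM2, a log2 difference of 0.45 in siRRM1 (SE 0.11, limma adjusted p = 0.0313). ORC6 lost its call under 6 of 16 alternatives, among them the loss of scramble replicate 2 (adjusted p = 0.124) and of siRRM1 replicate 2 (0.145). ORC2 had a log2 difference of -0.33 in siRRM1 (adjusted p = 0.0713) and -0.29 in siRRM2, and ORC5 of -0.32 (adjusted p = 0.0746) and -0.29. Under the replicate block, ORC2 and ORC5 passed in siRRM1 (adjusted p = 0.0433 and 0.0396), both lower.

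CDC45 and the GINS proteins join the ring to form the active CMG helicase. Of the 5 tested, GINS4 rose in siRRM1 and 0 fell, against 8.22% and 7.33% of all genes tested. GINS4 read 8.48 and 8.80 in scramble, 9.17 and 9.11 in siRRM1, and 8.86 and 8.94 in siRRM2 (log2 0.50 in siRRM1, SE 0.12, limma adjusted p = 0.0295). Its call was lost without scramble replicate 1 (adjusted p = 0.134), siRRM1 replicate 1 (0.0808) or siRRM1 replicate 2 (0.110). In siRRM2 GINS4 had a log2 difference of 0.26 and GINS3 of -0.29, neither past the threshold. The list of helicase relatives also holds proteins associated with the MCM subunits. Of its 3 genes tested, MCM9, MCMBP and MCM3AP, 0 passed in either knockdown. At an unadjusted limma p under 0.05 there were also 0, against 32.6% of all genes tested in siRRM1 and 20.4% in siRRM2. The nearest in siRRM1 were MCM9 (-0.25), whose other probe set 213561_at gave 0.39, and MCM3AP (-0.14). The other MCM3AP probe sets ran from -0.32 (215580_at) to 0.24 (215582_x_at).

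Among 9 kinases and cyclins that fire licensed origins or drive entry into S phase, 3 rose in siRRM1 and 0 fell. Over all genes tested the shares were 8.22% and 7.33%. CCNE2, a cyclin E, read 8.92 and 8.91 in scramble, 9.89 and 10.12 in siRRM1, and 9.32 and 9.55 in siRRM2. It rose by log2 1.09 in siRRM1 (SE 0.12, limma adjusted p = 0.00205), and its other probe set gave 0.95. The difference in siRRM2 was 0.52 (adjusted p = 0.0652), which passed with the replicate block (adjusted p = 0.0183). CDK2, the kinase that cyclin E activates, rose by log2 0.52 (adjusted p = 0.0186), with its other probe sets at 0.49 and 0.12. CCND2, a D-type cyclin, rose by 0.55 (adjusted p = 0.00941), with its other probe sets at 0.43 and 0.25. In siRRM2 the CCND2 difference was 0.36 (adjusted p = 0.0873), short of the threshold. Without siRRM1 replicate 2 the adjusted p was 0.106 for CDK2 and 0.0506 for CCND2, and CDK2 also lost its call without scramble replicate 1 (0.0904) or 2 (0.0514). CDC7 and DBF4, the kinase and its activator that phosphorylate the loaded MCM ring, are named for that role and had log2 differences of 0.04 and -0.21 in siRRM1.

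Among 8 regulators of licensing, DTL rose and GRWD1 fell in siRRM1, where 8.22% of all genes tested rose and 7.33% fell. DTL, the adaptor of the ubiquitin ligase that destroys CDT1 during S phase, read 10.11 and 10.20 in scramble, 10.71 and 10.85 in siRRM1, and 10.24 and 10.38 in siRRM2. Both siRRM1 arrays stood clear of the rest, at a log2 difference of 0.62 (SE 0.10, limma adjusted p = 0.00824). Its call was lost without siRRM1 replicate 2 (adjusted p = 0.0568), and with the replicate block DTL was higher in siRRM1 than in siRRM2 (log2 0.47, adjusted p = 0.0378). GRWD1, a histone-binding protein of licensing sites, had a log2 difference of -0.34 (adjusted p = 0.0384), and lost its call under 9 of 16 alternatives, each of the 6 that left out 1 array included (adjusted p = 0.0503 to 0.157). The ligase scaffold CUL4A had differences of -0.44 in siRRM1 and -0.47 in siRRM2 by 201424_s_at, not past the threshold without the block (adjusted p = 0.0642 and 0.109) and past it with the block (0.0185 and 0.0331), while 201423_s_at gave -0.14 and -0.15. In siRRM2 the next smallest p belonged to SKP2, which encodes a ubiquitin ligase subunit, with a log2 difference of -0.25 by 203625_x_at. Its probe sets differed in size. In the fit over all probe sets, 210567_s_at fell in siRRM1 (log2 -0.79, limma adjusted p = 0.0487) and gave -0.49 in siRRM2 (adjusted p = 0.316), while 203625_x_at gave -0.18 in siRRM1.

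The genes listed here as other E2F targets of the G1/S transition were all measured higher in siRRM1. That list was chosen with earlier results of these data known, so it does not stand for E2F targets as a class. Of 12 tested, 5 rose, 0 fell and all 12 had a log2 difference above 0, with a median of 0.35. Over all genes tested 8.22% rose, 7.33% fell and 48.3% had a difference above 0, with a median of -0.0092. PCNA, the sliding clamp, rose by log2 0.72 (adjusted p = 0.00340), TK1, a thymidine kinase, by 0.63 (adjusted p = 0.0106), E2F8, a repressor of the family, by 0.57 (adjusted p = 0.00809) and TYMS, thymidylate synthase, by 0.41 (adjusted p = 0.0234). The fifth was CCNE2. Without siRRM1 replicate 2 the calls of TK1 (0.0694), E2F8 (0.0507) and TYMS (0.0586) were lost, as were TK1 without scramble replicate 1 (0.0522) and TYMS without any single array of the compared groups (up to 0.0957). In siRRM2 0 passed, 6 had an unadjusted limma p under 0.05 (20.4% of all genes tested), and the median was 0.29, with E2F8 at 0.39 and CCNE2 at 0.52. Over all 6 lists, counting each gene once, 10 of 42 genes rose and 1 fell in siRRM1, against 8.22% and 7.33% of all genes tested, with 2 risen without siRRM1 replicate 2, CCNE2 and PCNA. In siRRM2 0 of 42 rose, against 2.00% of all genes tested. With the replicate block CCNE1 (log2 0.41, adjusted p = 0.0177) and FEN1 (0.29, adjusted p = 0.0386) also rose in siRRM1, and 3 rose in siRRM2: CCNE2, TK1 (0.39, adjusted p = 0.0399) and E2F8 (adjusted p = 0.0412). Between the knockdowns CCNE2 passed with the block as well (log2 0.57, adjusted p = 0.0296).

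**Figure D4:**
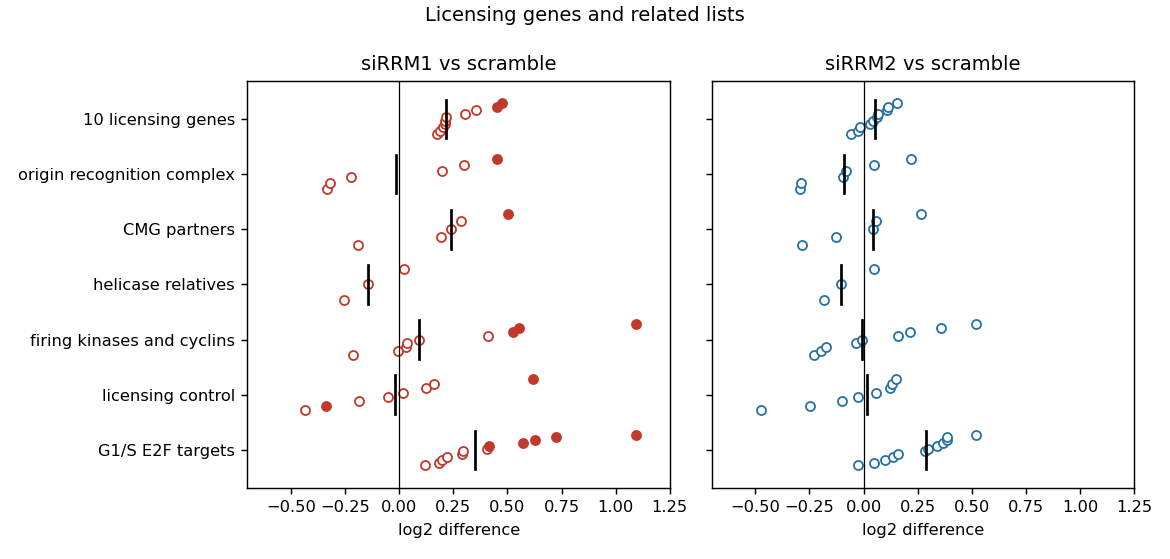
Log2 difference from scramble (horizontal axis) of each tested gene in the licensing genes and the 6 related lists, in siRRM1 (left) and siRRM2 (right); filled points passed an adjusted p of 0.05 and the vertical bar is the list's median. The medians are 0.21 for the licensing genes and 0.35 for the E2F targets in siRRM1, and 0.05 and 0.29 in siRRM2.

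The mean profile of MCM2 to MCM7, as log2 differences from the scramble mean, was -0.07 and 0.07 on the scramble arrays, 0.32 and 0.31 on the siRRM1 arrays, and 0.03 and 0.10 on the siRRM2 arrays. Measured by the root mean square difference over the 6 arrays, the genes outside the 10 with the closest profiles were CCDC90B (0.03), RAB27A, POLA2, EHD1 and KIF3B (each 0.04). POLA2 encodes a subunit of the DNA polymerase alpha and primase complex. Among the licensing genes outside the ring, CDT1 lay closest to that profile (0.05) and MCM10 farthest (0.11), with GMNN also at 0.11. The ring genes themselves lay 0.06 (MCM2) to 0.12 (MCM4) from it. Closeness to this profile therefore did not set the ring apart from the other licensing genes.

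Markers of other cell types and of proliferation were followed beside these values. Of 7 myeloid markers, 6 were on the array and 3 (S100A8, S100A9 and CSF1R) had a mean above the limit for testing. All 3 rose in siRRM1 and 0 in siRRM2, where 8.22% and 2.00% of all genes tested rose. CD14, LYZ and ITGAM stayed below the limit on every array. S100A8 read 4.45 and 4.44 on the scramble arrays, below the limit, and passed it only through its knockdown arrays, so its rise and its testing are not independent. The mean log2 signal of the 6 was 4.74 and 4.80 in scramble, 5.88 and 6.48 in siRRM1, and 5.30 and 5.83 in siRRM2. The T cell list averaged 5.62 to 5.75 in scramble, 5.87 to 6.00 in siRRM1 and 5.83 to 5.95 in siRRM2, with 2 of 6 above the limit, of which TRBC1 rose in both knockdowns (log2 1.09 and 0.64) and CD3E in neither. The stromal list averaged 6.82 to 6.92, 7.24 to 7.31 and 7.08 to 7.14, with 4 of 6 above it. ACTA2 rose in both knockdowns (log2 2.10 and 1.31) and FN1 in siRRM1 (0.37). The epithelial list averaged 5.05 to 5.12, 5.01 to 5.02 and 5.01 to 5.04, with 2 of 5 above the limit and 0 called. The plasma cell and myeloma list averaged 10.80 to 10.81, 10.47 to 10.60 and 10.79 to 10.90. From it IRF4 (-0.63) and FGFR3 (-0.54) fell in siRRM1, where 7.33% of all genes tested fell. Of the 3 proliferation markers, PCNA rose in siRRM1 and 0 rose in siRRM2. MKI67 read 9.58 and 9.48 in scramble, 9.69 and 9.64 in siRRM1, and 9.67 and 9.71 in siRRM2. TOP2A read 11.60 and 11.51 in scramble, 11.29 and 11.28 in siRRM1, and 11.19 and 11.46 in siRRM2. Its knockdown arrays all lay below both scramble arrays, and it was called in neither knockdown. The part of these shifts in the licensing values was not tested.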

How the data were processed

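Log2 signals deposited by the authors for 22277 probe sets on 6 Affymetrix arrays were used as given; per the labels' protocols, biotinylated cRNA was hybridised. The log base was inferred from their range (highest signals of 14.39 to 14.42), and their summary and normalization are not given in the sources used here.

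Platform annotation gave 1 gene symbol to 19070 probe sets, several to 1043 and none to 2164, and all 10 licensing genes matched RefSeq by gene identifier. For each gene the probe set with the highest mean was tested where that mean reached the 40th percentile (5.44), leaving 7936 genes; a second fit took all 22277 probe sets. Both used limma 3.58.1 in R 4.3.3 (lmFit, eBayes) over all genes or probe sets and all 6 arrays, with 3 residual degrees of freedom, two-sided p-values and Benjamini-Hochberg adjustment, and a call at an adjusted p under 0.05. The scripts were tested on simulated data. Members, lists and rules were chosen with earlier results of these data known. Lists name all genes that passed, or otherwise the 2 with the smallest p. Likeness took the 5 smallest root mean square differences.

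Replicate numbers come from the labels. Over 7936 genes the differences between replicates 1 and 2 correlated at 0.38 between scramble and siRRM1, 0.36 between scramble and siRRM2 and 0.21 between siRRM1 and siRRM2, so arrays of one number deviated together. The block on replicate number is an alternative, given beside results whose call it changes. Other alternatives changed the scaling, the filter, the variance model, the arrays fitted and the probe set per gene.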

Additional observations from a re-analysis of the deposited data

Results flagged for a closer look

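The following either differed between the knockdowns in the test or lay on opposite sides of the scramble mean. RRM1 and RRM2, the siRNA targets, had log2 differences between siRRM1 and siRRM2 of -2.79 (limma adjusted p = 0.0200) and 2.03 (limma adjusted p = 0.0389). For 4 others both siRRM1 arrays lay on one side of the scramble mean and both siRRM2 arrays on the other. None of the 4 passed the test of the difference itself. The share of all genes split this way was not counted, so the 4 are a description only. The CDC6 probe set 203967_at differed by 0.28 (0.18 in siRRM1 and -0.10 in siRRM2, limma adjusted p = 0.661), and the other CDC6 probe set was not split this way. GINS2 differed by 0.32 (0.19 and -0.13, limma adjusted p = 0.327) and MCMBP, a binding partner of the MCM proteins, by 0.13 (0.02 and -0.10, limma adjusted p = 0.706). MCM3AP differed by -0.19 (-0.14 and 0.05, limma adjusted p = 0.510).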

How the results depend on the processing

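In siRRM1 the log2 differences of the 10 licensing genes were above 0 in all 160 values from 16 alternatives. The threshold was crossed in 8 of them, as 5 losses by MCM3 and MCM5 and 3 gains by MCM2 (60th percentile filter, intensity trend, replicate block). In siRRM2 11 of 160 values changed sign, all of differences between -0.06 and 0.05, and between the knockdowns 1 of 160 did.

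With the replicate block, called genes numbered 1904 in siRRM1 (1234 without it), 622 in siRRM2 (200) and 153 between the knockdowns (13), and called probe sets 2491 (1446), 603 (151) and 87 (7). Among the partner lists 3 genes then rose in siRRM2 and 2 were higher in siRRM1 than in siRRM2. The block changed the call of MCM2 and of the MCM4 probe set 222037_at, and of no other licensing gene or probe set.

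With the intensity trend, 336 genes and 325 probe sets were called in siRRM2, 42 genes and 14 probe sets between the knockdowns, and 3 partner genes rose in siRRM2. Taking the probe set with the largest variance gave 108 genes in siRRM2 and 4 between the knockdowns, and the 60th percentile filter also gave 4 there. That filter and the mean of probe sets each let 1 partner gene rise in siRRM2. With the 4 arrays compared alone, 870 probe sets were called in siRRM1, of which 0 were licensing probe sets.

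Signs turned in siRRM2 for MCM6 (0.016 with quantile normalization) and MCM7 (-0.0084 after median centring, -0.0089 by the probe set with the largest variance, and 0.025 for 208795_s_at with quantile normalization). MCM9 turned to 0.068 in siRRM1 and 0.016 in siRRM2 with the mean of its probe sets, and to 0.39 and 0.21 by the probe set with the largest variance. CCND2 had no value under the 60th percentile filter or the mean of probe sets, which left it below the limit.

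Leaving out each array in turn gave 312 to 1234 called genes in siRRM1, 21 to 206 in siRRM2 and 2 to 16 between the knockdowns, and 357 to 1738, 9 to 132 and 2 to 10 called probe sets. Of the licensing genes 0 to 2 then rose in siRRM1, of their probe sets 0 to 1 and of the partner genes 2 to 9. Differences that changed sign were those in siRRM2 of MCM2 (-0.072 to 0.16), MCM6 (-0.069 to 0.042), MCM7 (-0.086 to 0.14, and -0.11 to 0.095 for 208795_s_at), MCM10 (-0.16 to 0.045) and CDC6 (-0.058 to 0.010), that of 212142_at of MCM4 in siRRM1 (-0.18 to 0.51), and between the knockdowns those of MCM4 (-0.041 to 0.31) and 212142_at (-0.27 to 0.43). A group left with 1 array was assumed to vary like the others. The 2 arrays a group limit the precision of all these values.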
